A study of Mus musculus with 12 samples.

Results

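The antagonists and modulators of Wnt signalling followed here are 10 genes, measured in mouse left ventricle after infarction and in mice with a Cre recombinase in activated fibroblasts. They were chosen by gene symbol, and all 10 were among the 17471 genes listed by the library files and among the 13678 genes that passed the filter on low counts. Left ventricles were sequenced as bulk RNA in 12 libraries, 3 in each of 4 groups. All mice were siblings with floxed alleles of Yap, a transcriptional co-activator of the Hippo pathway, from 2 Jackson Laboratory parental stocks, and were 6 to 10 weeks old. In Cre-positive mice 1 Postn (periostin) allele also expressed MerCreMer, an inducible Cre, from its endogenous promoter, which the submitters describe as myofibroblast-specific, while Cre-negative mice had wildtype Postn. Mice of either genotype had the left anterior descending artery tied off for good, which causes a myocardial infarction (MI), or had a sham operation. Every mouse received a tamoxifen citrate diet from surgery on, which allows the recombinase to act, and was sampled at day 4. The groups were thus Cre-negative sham, Cre-positive sham, Cre-negative MI and Cre-positive MI, with n = 3 libraries each. Replicates carry only a number in the labels, so p-values measure the spread between these samples, which may be technical. Because Cre-positive mice carried the Postn insertion in addition to the floxed alleles, an effect of the insertion and one of recombined Yap cannot be told apart.

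Wnt proteins are secreted ligands that bind Frizzled receptors on the cell surface. In the canonical branch this binding stops a cytoplasmic destruction complex from degrading beta-catenin, which then enters the nucleus and activates target genes with TCF/LEF factors, while other branches act on cell polarity and calcium. Secreted antagonists bind the ligands or block receptor assembly, and in the healing heart several of them are known as products of fibroblasts. Of the genes, 5 encode secreted proteins classed as antagonists. Sfrp1, Sfrp2 and Frzb are secreted Frizzled-related proteins with a Frizzled-like cysteine-rich domain, Wif1 (Wnt inhibitory factor) binds Wnt ligands through a domain of its own, and Dkk3 is a divergent member of the Dickkopf family whose role in Wnt signalling is less clear. Fzd1 and Fzd2 are Frizzled receptors. Wnt5a is a ligand best known for the branches that do not use beta-catenin. Tnfrsf19 (also called Troy) is a receptor of the tumour necrosis factor superfamily that has been described as a Wnt target, and Axin2 is a scaffold of the destruction complex and a widely used readout of beta-catenin activity, since it is itself induced and feeds back.

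Positions are those of the RefSeq annotation of GRCm38.p6 (mm10). Sfrp1 (Entrez gene 20377) lies at chr8:23411383-23449632, Sfrp2 (20319) at chr3:83765750-83774314, Frzb (20378) at chr2:80411970-80447396, Wif1 (24117) at chr10:121034004-121100642 and Dkk3 (50781) at chr7:112116019-112159482. Fzd1 (14362) lies at chr5:4753839-4758216, Fzd2 (57265) at chr11:102604431-102608058, Wnt5a (22418) at chr14:28504543-28527448, Tnfrsf19 (29820) at chr14:60963834-61046855 and Axin2 (12006) at chr11:108917828-108950783. Wnt5a and Tnfrsf19 were each counted over 2 RefSeq transcripts and the other genes over 1. Tnfrsf19 overlaps the long noncoding RNA gene Gm41167, and no source used here says whether the counting used strand, so reads of the shared stretch are uncertain. Sfrp1 had a fractional count in 12 of 12 libraries, meaning that some of its reads were shared with other transcripts. Fzd1 had a whole count in 8 of 12 libraries and Fzd2 in 7 of 12, with fractional counts in the rest. The remaining genes had whole counts in all 12.

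Promoter sequences from RefSeq were matched for 6 of the 10 genes. Shown are those of Sfrp2 and Frzb, which rose after MI, and of Wif1 and Tnfrsf19, which fell, from 250 bases before to 50 bases after the start site. A lone capital marks the first transcribed base and a run of capitals marks a motif. The Sfrp2 promoter is chr3:83766071-83766370 on the plus strand, that of Frzb is chr2:80447347-80447646 on the minus strand, that of Wif1 is chr10:121033754-121034053 on the plus strand, and the second of 2 listed for Tnfrsf19 is chr14:61037938-61038237 on the minus strand.
Sfrp2: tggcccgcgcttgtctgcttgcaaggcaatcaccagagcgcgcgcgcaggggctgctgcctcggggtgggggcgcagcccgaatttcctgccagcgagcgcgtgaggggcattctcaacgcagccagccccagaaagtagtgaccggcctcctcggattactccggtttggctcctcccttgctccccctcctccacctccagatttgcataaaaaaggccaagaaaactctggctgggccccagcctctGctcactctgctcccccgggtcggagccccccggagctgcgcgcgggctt
Frzb: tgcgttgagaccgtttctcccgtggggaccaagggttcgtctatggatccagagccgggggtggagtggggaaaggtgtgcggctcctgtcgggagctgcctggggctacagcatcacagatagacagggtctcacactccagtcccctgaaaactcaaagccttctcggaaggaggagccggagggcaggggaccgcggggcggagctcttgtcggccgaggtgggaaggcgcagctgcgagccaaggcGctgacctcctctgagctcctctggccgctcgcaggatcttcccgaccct
Wif1: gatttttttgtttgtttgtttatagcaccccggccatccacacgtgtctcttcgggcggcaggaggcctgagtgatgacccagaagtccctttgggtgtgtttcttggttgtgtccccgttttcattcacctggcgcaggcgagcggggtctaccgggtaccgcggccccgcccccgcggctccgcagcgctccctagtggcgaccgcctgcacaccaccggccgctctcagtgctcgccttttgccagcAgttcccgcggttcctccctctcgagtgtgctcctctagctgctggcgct
Tnfrsf19: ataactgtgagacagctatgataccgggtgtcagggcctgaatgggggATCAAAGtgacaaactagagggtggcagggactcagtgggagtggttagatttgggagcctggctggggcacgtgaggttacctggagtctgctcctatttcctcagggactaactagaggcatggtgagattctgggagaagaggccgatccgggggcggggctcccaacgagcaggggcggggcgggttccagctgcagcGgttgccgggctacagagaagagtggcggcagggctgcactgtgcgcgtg

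A set of 3 short motifs was searched on both strands of the 7 promoters of these 6 genes. A TCF/LEF core, CTTTGAT or CTTTGAA (reverse complements ATCAAAG and TTCAAAG), was found once, as ATCAAAG at position -202 of the second Tnfrsf19 promoter. The same core occurred in 8.7% of the 32851 RefSeq promoters of this length. The TEAD core CATTCC (reverse complement GGAATG) and the AP-1 motif TGANTCA were in none of the 7, against 14.7% and 7.8% of all promoters. The motifs do not overlap each other, and a match or its lack describes these 300 bases only. The promoters held 51.0 to 70.0% G and C, lowest in the first Tnfrsf19 promoter and highest in that of Axin2, against a median of 52.7% over all promoters.

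Total expected counts were 10257675 to 15176286 per library, so 3 reads correspond to 0.198 to 0.292 CPM (counts per 1e6 counts of the library) before scaling. The CPM of genes and markers given below use library sizes scaled by factors of 0.89 to 1.14, apart from the Y-linked sum. Yap1 was at 114 to 116 CPM in Cre-negative sham, 102 to 121 in Cre-positive sham, 84.6 to 96.4 in Cre-negative MI and 91.1 to 93.9 in Cre-positive MI, and it did not pass the test between genotypes after sham (adjusted p = 0.843) or MI (adjusted p = 0.971). Cardiomyocyte markers, the defining genes of ventricular muscle, were present in all libraries, with 10 of 10 above 3 reads in each group. Cre-positive sham replicate 2 stood apart from the other sham libraries. Myh7, a myosin of slow and stressed heart muscle, was at 34100 CPM there against 377 to 2940 in the other 5. Of the 10 Wnt genes, 6 had their lowest sham value in that library and 1, Dkk3, its highest, so values with and without it are given where they matter. The summed level of 4 Y-linked genes (Uty, Kdm5d, Eif2s3y and Ddx3y) came to at least 10 CPM in 2 of 3 Cre-negative sham, 0 of 3 Cre-positive sham, 3 of 3 Cre-negative MI and 1 of 3 Cre-positive MI libraries, so the groups were not balanced for sex.

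After MI in Cre-negative hearts the secreted Frizzled-related proteins, Dkk3 and both Frizzled receptors rose, Wif1 and Tnfrsf19 fell, and Wnt5a and Axin2 did not pass the test. Called here means an adjusted p under 0.05 in edgeR's quasi-likelihood test over all 12 libraries. Of the 10 genes, 6 were called higher and 2 lower, where over all 13678 genes tested 29.9% were called higher and 24.4% lower, 54.3% in either direction. As a plainer measure, every MI library lay above every sham library for the 6 risen genes and below for Wif1, Wnt5a and Tnfrsf19, which held for 36.1% and 31.7% of all genes. In Cre-positive hearts the same 6 genes rose and Tnfrsf19 fell, against 25.7% of all genes called higher, 19.5% lower and 45.2% in either direction, and MI libraries lay above all sham libraries for 6 and below for 1, against 29.3% and 21.8% of all genes. Between genotypes none of the 10 was called after MI, where 0% of all genes were called, or after sham, where 0.0512% were called. No gene was called for a different injury response between genotypes (0% of all genes). The same test gave an unadjusted p under 0.05 for 1728 genes after MI, 1125 after sham and 1116 for the injury response, and DESeq2 called 177, 36 and 32.

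**Figure D1:**
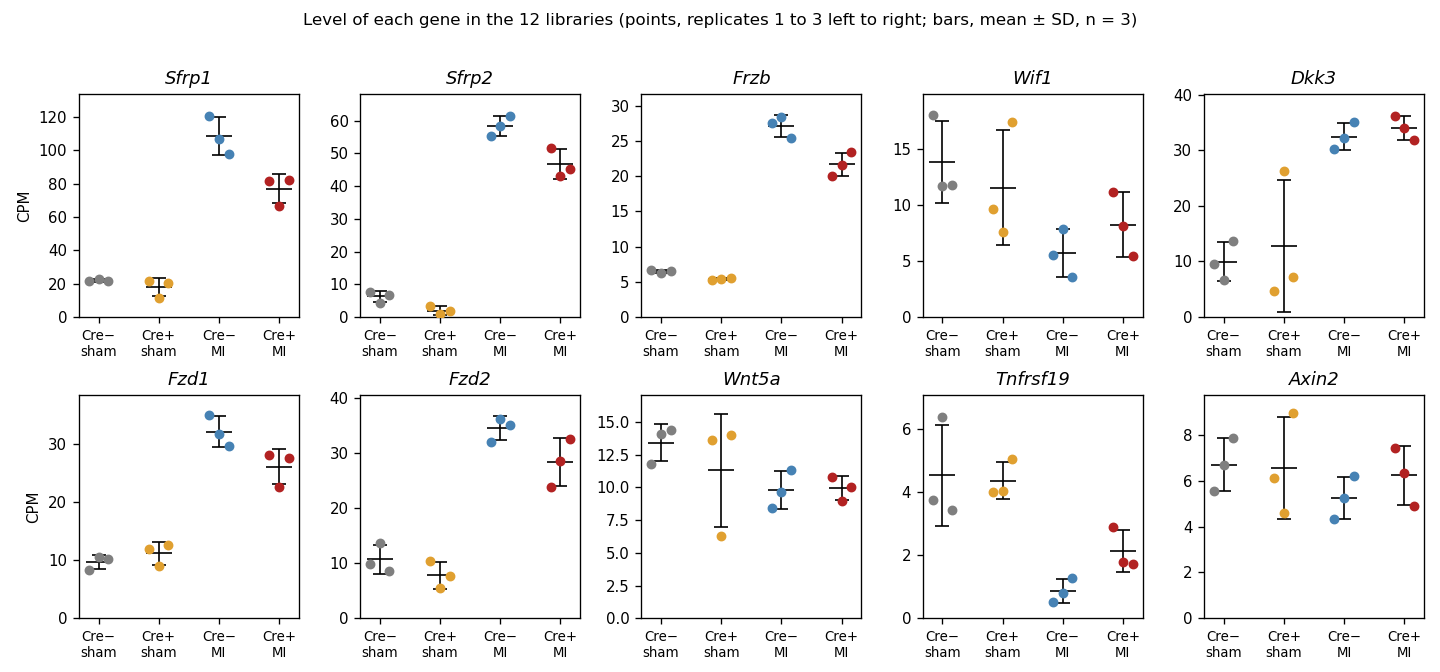
CPM of the 10 genes (vertical axes, linear from 0) in each library by group (horizontal axes); points are libraries, the long dash and bars are mean and SD, n = 3. Sfrp1, Sfrp2, Frzb, Dkk3, Fzd1 and Fzd2 lie higher in all 6 MI than in all 6 sham libraries, and Tnfrsf19 lies lower. Dkk3 has 1 high sham library at 26.3 CPM.

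Sfrp2, which besides its part in Wnt signalling has been described as affecting procollagen processing, had the largest log2 rise of the 10 in both genotypes. It was at 7.71, 4.39 and 6.80 CPM in Cre-negative sham and 55.4, 58.5 and 61.3 CPM after Cre-negative MI. In Cre-positive hearts it was at 3.22, 0.733 and 1.86 CPM after sham and 51.8, 43.2 and 45.3 CPM after MI. All MI libraries were above all sham libraries, and within each surgery every Cre-positive library was below every Cre-negative one. The injury rise was 9.24-fold in Cre-negative (log2 3.21 ± 0.28 SE, adjusted p = 1.9e-06) and 23.6-fold in Cre-positive hearts (log2 4.56 ± 0.32 SE, adjusted p = 7.14e-07). The difference between these rises, 1.35 ± 0.42 on the log2 scale, was not called (adjusted p = 0.552, unadjusted p = 0.00713). The Cre-positive sham values rest on few reads, 8 in replicate 2. Without replicate 1 of that group the Cre-positive rise was 5.19 on the log2 scale, and without replicate 2 it was 4.13.

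Sfrp1, a Frizzled-related protein that binds several Wnt ligands, also rose in both genotypes. Cre-negative sham libraries held 21.6, 23.0 and 21.3 CPM and Cre-negative MI libraries 121, 107 and 98.1 CPM. Cre-positive sham libraries held 21.8, 11.5 and 20.2 CPM and Cre-positive MI libraries 81.7, 66.8 and 82.4 CPM. The sham libraries lay close together apart from the one at 11.5, and all MI libraries lay above them. The rise was 4.94-fold in Cre-negative (log2 2.30 ± 0.19 SE, adjusted p = 1.68e-06) and 4.31-fold in Cre-positive hearts (log2 2.11 ± 0.19 SE, adjusted p = 4.85e-06).

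Frzb, also known as sFRP3, had the smallest standard errors of the 10 genes in both injury comparisons. It was at 6.68, 6.19 and 6.50 CPM in Cre-negative sham, and at 27.6, 28.5 and 25.4 CPM in Cre-negative MI. Cre-positive libraries were at 5.23, 5.41 and 5.57 CPM after sham and 20.1, 21.6 and 23.4 CPM after MI. As for Sfrp2, each Cre-positive library was below each Cre-negative library of the same surgery. Frzb rose 4.2-fold in Cre-negative (log2 2.07 ± 0.11 SE, adjusted p = 9.63e-08) and 4.01-fold in Cre-positive hearts (log2 2.0 ± 0.11 SE, adjusted p = 1.32e-07). By its p it was gene 24 of the 13678 tested in Cre-negative hearts.

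Dkk3 was at 9.50, 6.69 and 13.6 CPM in Cre-negative sham and 30.2, 32.1 and 35.0 CPM in Cre-negative MI, a 3.26-fold rise (log2 1.71 ± 0.47 SE, adjusted p = 0.00878). Cre-positive sham libraries were at 4.66, 26.3 and 7.12 CPM and Cre-positive MI libraries at 36.1, 33.9 and 31.9 CPM. The MI libraries of both genotypes overlapped in range, and the sham library at 26.3 lay nearer to them than to its own group. The Cre-positive rise was 1.42 ± 0.46 (SE) on the log2 scale (adjusted p = 0.0241) and became 2.51 without that library (adjusted p = 5.24e-06). It lost its call without either of the other 2 Cre-positive sham libraries (log2 1.01 without replicate 1, adjusted p = 0.0554; log2 1.14 without replicate 3, adjusted p = 0.0839), without Cre-positive MI replicate 1 (adjusted p = 0.0581) or 2 (adjusted p = 0.0505), with a term for Y-linked reads (adjusted p = 0.0536) and when only the 2 groups were fitted (adjusted p = 0.0789). Dkk3 is also a marker of atrial muscle. The 7 other atrial markers summed to 1360 CPM in the sham library with high Dkk3, against 470 to 547 CPM in Cre-negative sham, mostly from Nppa, which encodes atrial natriuretic peptide. They summed to 2410 to 3030 CPM in Cre-negative MI and 2390 to 3520 CPM in Cre-positive MI. Nppa alone was at 2390 to 2950 and 2300 to 3480 CPM there. Among the 6 sham libraries Sln, Myl7 and Myl4, which define atrial muscle, were also highest in that one, at 14.2, 38.9 and 43.2 CPM, against at most 5.91, 29.3 and 35.8 CPM in the other 5. Bmp10, also atrial, was at 0 in 11 of the 12 libraries, this one included, and had 1 read in Cre-positive sham replicate 1. Sln, Myl7 and Myl4 did not follow Nppa after MI, and their sham and MI ranges overlapped in both genotypes. In Cre-negative hearts Sln was at 2.6 to 5.91 CPM after sham and 0 to 4.54 after MI. Myl7 was at 8.09 to 29.3 and 0.116 to 22.7 CPM, and Myl4 at 8.89 to 35.8 and 2.44 to 31.5 CPM. The part of these genes in the Dkk3 values was not tested.

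Wif1 went the other way. It was at 18.1, 11.7 and 11.8 CPM in Cre-negative sham and 5.57, 7.87 and 3.60 CPM in Cre-negative MI, with no overlap, and fell by 1.28 ± 0.36 (SE) on the log2 scale (adjusted p = 0.0102). In Cre-positive hearts it was at 9.65, 7.61 and 17.4 CPM after sham and 11.2, 8.13 and 5.44 CPM after MI. These ranges overlapped, and the log2 difference of -0.48 ± 0.36 (SE) did not pass the test (adjusted p = 0.297). The 2 responses were not called different (0.81 ± 0.51 SE, adjusted p = 0.692).

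Expression per transcript length, as the FPKM values deposited by the authors, shows how the mix of secreted antagonists changed. These values lack the library scaling used for CPM, so differences between groups can differ on the 2 measures. Mean Ctnnb1, for example, was at 119 FPKM in Cre-negative sham and 125 in Cre-negative MI, but at 453 and 399 CPM. After sham Wif1 was first of the 10 genes in both genotypes. It was at 5.75 ± 1.34 FPKM (SD, n = 3) in Cre-negative and 4.66 ± 2.11 FPKM in Cre-positive sham. Its range overlapped that of Sfrp1 in second place. After MI Sfrp2 was first, at 32.4 ± 0.871 FPKM in Cre-negative and 24.8 ± 2.74 FPKM in Cre-positive hearts, with Sfrp1 second at 27.3 ± 3.53 and 18.4 ± 2.39 FPKM, and these ranges were apart. The 5 antagonists summed to 18.1 ± 1.77 FPKM in Cre-negative sham, 14.2 ± 1.44 in Cre-positive sham, and after MI to 83.4 ± 3.46 FPKM in the Cre-negative and 65.6 ± 5.96 FPKM in the Cre-positive group. Wif1 made up 26.7 to 36.8% of that sum in Cre-negative hearts after sham and 2.19 to 4.61% after MI. In Cre-positive libraries its share was 21.2 to 45.0% after sham and 3.97 to 7.45% after MI. The Sfrp2 share was 13.2 to 17.6% in Cre-negative sham, 2.32 to 11.5% in Cre-positive sham, 36.5 to 41.8% in Cre-negative MI and 37.1 to 38.7% in Cre-positive MI. Its share thus did not overlap between genotypes after sham but lay in the same range after MI. Frzb held a steady share, with group means of 11.4 to 12.3%.

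**Figure D2:**
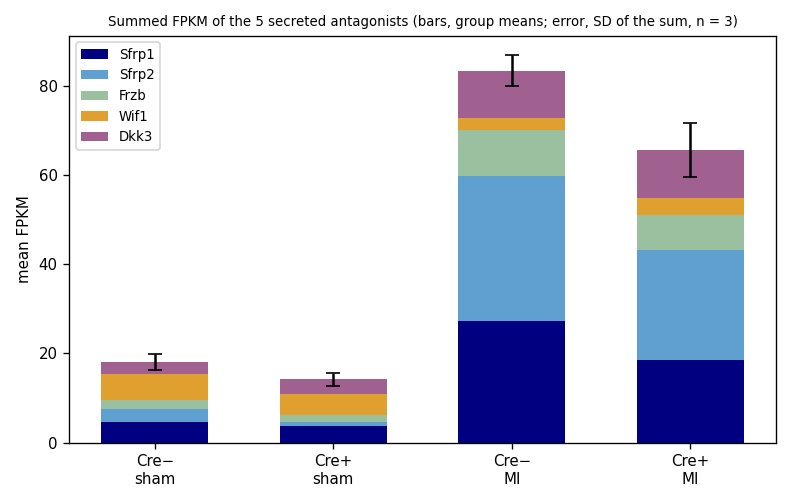
Mean FPKM of the 5 secreted antagonists, stacked (vertical axis, linear from 0), by group (horizontal axis); the error bar is the SD of their sum, n = 3. The sum is 18.1 and 14.2 FPKM in the sham groups and 83.4 and 65.6 FPKM in the MI groups, where Sfrp2 and Sfrp1 take most of it and Wif1 little.

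In order of FPKM after Cre-negative MI, Dkk3 (10.6 ± 0.53), Fzd2 (10.5 ± 0.547) and Frzb (10.3 ± 0.791) came after Sfrp1, apart from it but with ranges that overlapped each other. Fzd1 (8.06 ± 0.849), Wif1 (2.82 ± 1.08) with Wnt5a (2.59 ± 0.342), Axin2 (1.35 ± 0.21) and Tnfrsf19 (0.233 ± 0.0971) came next, each step apart except that between Wif1 and Wnt5a. In Cre-positive MI the order was the same, although there the ranges of Dkk3 and Fzd2 were apart and those of Fzd1 and Wif1 overlapped. In Cre-negative sham the 6 genes after Wif1 and Sfrp1, Wnt5a, Sfrp2, Fzd2, Dkk3, Fzd1 and Frzb, had means of 2.95 down to 2.06 FPKM, each overlapping its neighbour. In Cre-positive sham all neighbours overlapped, and Sfrp2 was last at 0.88 ± 0.571 FPKM.

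Both Frizzled receptors rose after MI. Fzd1 was at 8.28, 10.6 and 10.3 CPM in Cre-negative sham and 35.0, 31.8 and 29.8 CPM in Cre-negative MI, and at 12, 8.98 and 12.6 CPM in Cre-positive sham and 28.1, 22.7 and 27.7 CPM in Cre-positive MI. Fzd2 was at 9.78, 13.7 and 8.57 CPM in Cre-negative sham and 32.1, 36.3 and 35.2 CPM in Cre-negative MI, and at 10.4, 5.50 and 7.63 CPM in Cre-positive sham and 23.9, 28.5 and 32.6 CPM in Cre-positive MI. For either gene all 6 MI libraries exceeded all 6 sham libraries. Fzd1 rose 3.30-fold in Cre-negative (log2 1.72 ± 0.15 SE, adjusted p = 2.36e-06) and 2.34-fold in Cre-positive hearts (log2 1.23 ± 0.15 SE, adjusted p = 4.46e-05). Fzd2 rose 3.23-fold (log2 1.69 ± 0.22 SE, adjusted p = 3.78e-05) and 3.60-fold (log2 1.85 ± 0.22 SE, adjusted p = 3.53e-05). The Fzd1 responses differed by -0.50 ± 0.21 (SE) on the log2 scale, which was not called (adjusted p = 0.598, unadjusted p = 0.0372). Among the 10 Frizzled genes by mean FPKM, Fzd2 was the third in Cre-negative sham and the first in Cre-negative MI, passing Fzd4, which fell from 11.1 ± 0.691 to 9.09 ± 1.04 FPKM (log2 -0.54 ± 0.11 SE on counts, adjusted p = 0.00164). In Cre-positive MI Fzd4 stayed first at 9.2 ± 0.921 FPKM, with Fzd2 at 8.2 ± 1.23 FPKM. The Fzd4 call in either genotype was lost on log2(FPKM + 1) values (adjusted p = 0.057 and 0.0528).

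Wnt5a, the ligand, was at 11.8, 14.1 and 14.4 CPM in Cre-negative sham and 8.41, 9.62 and 11.3 CPM in Cre-negative MI. The ranges did not overlap, but the log2 difference of -0.46 ± 0.24 (SE) was not called (adjusted p = 0.127). Cre-positive libraries were at 13.6, 6.32 and 14 CPM after sham and 10.8, 8.97 and 10.0 CPM after MI (log2 -0.19 ± 0.24 SE, adjusted p = 0.556). The sham library at 6.32 is the one that stood apart, and without it the fall was called in Cre-negative (log2 -0.48, adjusted p = 0.00936) and in Cre-positive hearts (log2 -0.51, adjusted p = 0.0155). A fit of the Cre-negative groups alone also called it (adjusted p = 0.0237), as did the authors' deposited table (log2 -0.49, adjusted p = 0.0303). Of 18 Wnt ligands listed in the files Wnt5a had the highest mean FPKM in Cre-negative sham, 2.95 ± 0.466. In Cre-positive sham Wnt5a was second at 2.37 ± 0.927 FPKM, behind Wnt9a at 2.72 ± 0.665. After MI Wnt5a was behind 2 others, at 2.59 ± 0.342 in Cre-negative and 2.55 ± 0.245 in Cre-positive hearts. Wnt4, a ligand with roles in kidney and mesenchyme, was then first at 4.1 ± 0.18 and 3.18 ± 1.73 FPKM.

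Tnfrsf19 had the steepest fall of the 10 genes. It was at 3.76, 6.39 and 3.45 CPM in Cre-negative sham and 0.522, 0.812 and 1.27 CPM in Cre-negative MI, so every MI library was below every sham library. In Cre-positive hearts it was at 4.02, 4.03 and 5.05 CPM after sham and 2.91, 1.77 and 1.73 CPM after MI, again with no overlap. In Cre-negative hearts it fell by 2.39 ± 0.36 (SE) on the log2 scale (adjusted p = 0.00014), the 19th lowest log2 value of the 13678 genes tested. In Cre-positive hearts it fell by 1.03 ± 0.33 (SE) on the log2 scale (adjusted p = 0.0224). That call was lost with the term for Y-linked reads (adjusted p = 0.0512), on log2(FPKM + 1) values (log2 -0.31, adjusted p = 0.0806), without Cre-positive sham replicate 3 (adjusted p = 0.062) and without Cre-positive MI replicate 2 (adjusted p = 0.0766) or 3 (adjusted p = 0.0826). On log2(FPKM + 1), which shrinks the change of low genes, the Cre-negative value was -0.69. The difference of the responses, 1.36 ± 0.49 (SE), was not called (adjusted p = 0.589, unadjusted p = 0.0158). As few as 9 reads per library lie behind these values.

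Axin2 was nearly level. Its libraries were at 5.55, 6.69 and 7.88 CPM in Cre-negative sham, 6.11, 4.58 and 8.97 in Cre-positive sham, 4.35, 5.24 and 6.2 in Cre-negative MI and 7.45, 6.36 and 4.91 in Cre-positive MI. All 4 ranges overlapped. The log2 differences after MI were -0.35 ± 0.25 (SE, adjusted p = 0.265) in Cre-negative and -0.06 ± 0.25 (SE, adjusted p = 0.856) in Cre-positive hearts, and no alternative fit called either.

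**Figure D3:**
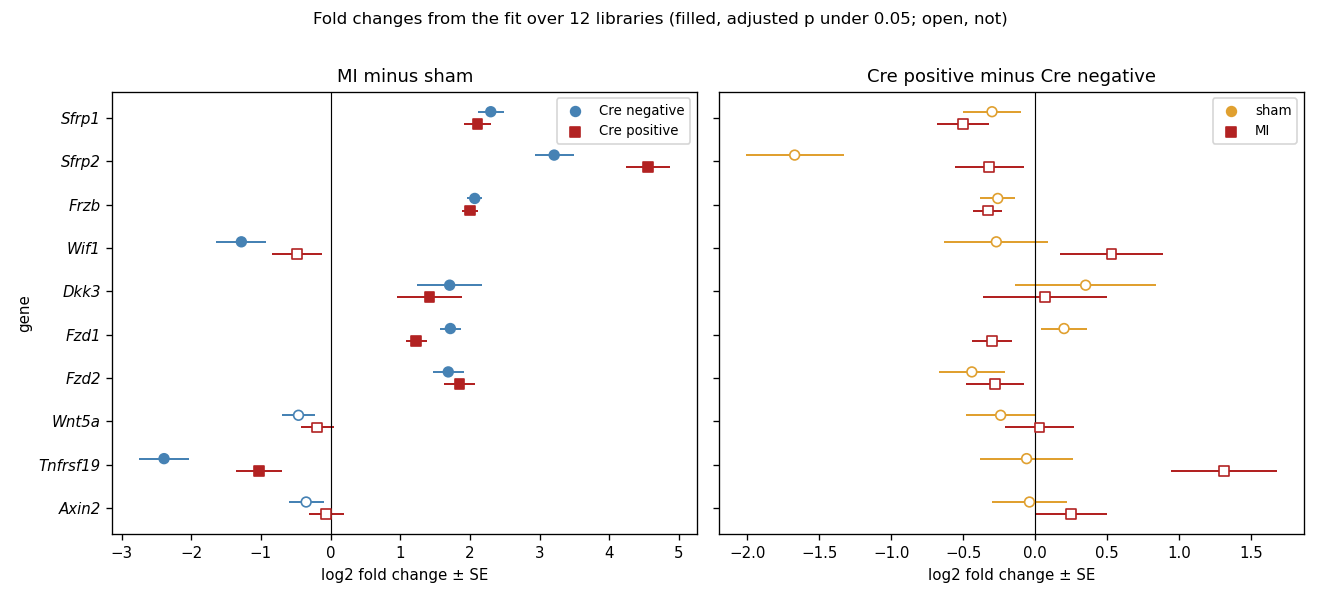
Log2 fold changes with standard errors (horizontal axes) of the 10 genes (vertical axis) for MI minus sham in each genotype and for Cre positive minus Cre negative after each surgery. Filled symbols passed an adjusted p under 0.05, 8 in Cre-negative and 7 in Cre-positive hearts for MI minus sham and 0 for the genotype comparisons.

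No member was called between genotypes after MI, although several did not overlap. Every Cre-positive library lay below every Cre-negative library for Sfrp1, Sfrp2, Frzb and Fzd1 and above for Tnfrsf19, where 15.2% of all genes tested lay below and 11.9% above in this way. The log2 differences, Cre positive minus Cre negative, were -0.50 ± 0.18 (SE) for Sfrp1, with an adjusted p = 0.301, and -0.33 ± 0.10 (SE) for Frzb, with an adjusted p = 0.264. For Sfrp2 the difference was -0.32 ± 0.24 (SE, adjusted p = 0.622) and for Fzd1 -0.30 ± 0.14 (SE, adjusted p = 0.41). Fzd2 stood at -0.28 ± 0.20 (SE, adjusted p = 0.599) with overlapping libraries. Tnfrsf19 was 2.48-fold higher by the estimate (log2 1.31 ± 0.37 SE, adjusted p = 0.256), the 36th highest value of all genes. In the authors' deposited table for this comparison 763 genes had an adjusted p under 0.05, and of the 10 genes Sfrp1 was among them (log2 -0.48, adjusted p = 0.00529), while Frzb had an adjusted p of 0.196 there and Tnfrsf19 one of 0.104.

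After sham, Sfrp2 and Frzb were the genes whose Cre-positive libraries all lay below the Cre-negative ones, against 5.18% of all genes, and none lay above. The Sfrp2 difference of -1.67 ± 0.34 (SE) on the log2 scale was not called (adjusted p = 0.247, unadjusted p = 0.000365, place 20 of all genes by p). DESeq2 called it at the same size (log2 -1.67, adjusted p = 0.000127), and edgeR called it without Cre-positive sham replicate 1 (log2 -2.32, adjusted p = 0.0434). The authors' deposited table gave it -1.70 with an adjusted p of 0.306. The other 9 genes had adjusted p-values of at least 0.609. For Dkk3 the sign of the estimate turned, from 0.35 to -0.75 on the log2 scale, when the library that stood apart was left out (adjusted p = 0.444). Postn itself was at 62.7 to 111 CPM in Cre-negative sham, 3.76 to 11.4 in Cre-positive sham, 1530 to 1730 in Cre-negative MI and 603 to 674 in Cre-positive MI.

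In bulk tissue, fewer cells of a type and less RNA per cell cannot be told apart, and markers of other cells moved with these genes. The 10 fibroblast markers, each above 3 reads in every group, summed to 3450 to 4080 CPM in Cre-negative sham, 2310 to 3600 in Cre-positive sham, 15300 to 16900 in Cre-negative MI and 12400 to 13800 in Cre-positive MI. The 3 collagens Col1a1, Col1a2 and Col3a1 made up 88.5 to 89.3% of that sum in Cre-negative MI and 4.49 to 17.8% in Cre-positive sham, and the 7 other markers summed to 2560 to 2780 and 2210 to 2960 CPM in the sham groups and to 1760 to 1860 and 1870 to 2370 CPM in the MI groups, in each case Cre negative first. The most abundant of the 7 in the sham groups was Gsn (gelsolin), an actin-severing protein, at 1750 to 1940 and 1390 to 2300 CPM in the sham groups and 747 to 770 and 868 to 1250 CPM in the MI groups. Gsn fell in both genotypes (log2 -1.29 ± 0.18 SE, adjusted p = 6.67e-05, and log2 -0.74 ± 0.17 SE, adjusted p = 0.00453). In Cre-negative hearts Pdgfra, Lum, Tcf21, Pdgfrl and Ddr2 rose, from log2 0.48 for Tcf21 to 2.04 for Pdgfrl, while Dcn was at log2 0.11 ± 0.14 (SE, adjusted p = 0.524). The 6 markers left without Gsn summed to 811 to 869, 661 to 817, 1010 to 1090 and 999 to 1180 CPM in Cre-negative sham, Cre-positive sham, Cre-negative MI and Cre-positive MI. Activated fibroblast markers summed to 376 to 441, 146 to 332, 5010 to 5410 and 3100 to 3490 CPM in the 4 groups, in the order Cre-negative sham, Cre-positive sham, Cre-negative MI, Cre-positive MI. In the same order macrophage markers summed to 248 to 303, 99.5 to 317, 1460 to 1920 and 1200 to 1270 CPM, and cardiomyocyte markers to 128000 to 143000, 83300 to 156000, 51500 to 71500 and 74600 to 90100 CPM. The part of these cell types in the changes was not tested.

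Setting each gene against these sums, a measure chosen after the levels were seen, gave answers that depended on which markers were used. The sums themselves differed between groups, and no share of all genes was computed on this measure. Against all 10 fibroblast markers the Sfrp1 level was 5.22 to 6.68 CPM per 1000 CPM of markers in Cre-negative hearts after sham and 5.82 to 7.15 after MI, and these overlapped, as did those of Frzb (1.59 to 1.79 and 1.51 to 1.87). Fzd1 lay lower after MI without overlap. It was at 2.22 to 3.07 after sham and 1.77 to 2.08 after MI in Cre-negative hearts. In Cre-positive hearts it was at 3.33 to 4.45 and 1.64 to 2.26. Wif1, Wnt5a, Tnfrsf19 and Axin2 also lay lower in both genotypes, and Dkk3 and Fzd2 overlapped. Sfrp2 still lay higher after MI. It was at 1.27 to 2.07 after sham and 3.28 to 3.83 after MI in Cre-negative hearts. In Cre-positive hearts it was at 0.317 to 0.894 and 3.12 to 4.17. Against the 7 markers without collagens, Sfrp1 in Cre-negative hearts was at 7.77 to 9.0 after sham and 54.5 to 64.9 after MI. Sfrp1, Sfrp2, Frzb, Dkk3, Fzd1 and Fzd2 all lay higher after MI in both genotypes. Without Gsn as well, Sfrp1 was at 24.5 to 28.4 after sham and 94.8 to 111 after MI in Cre-negative hearts. The ratio of means was 3.96, where the 7 markers gave 7.35 and the CPM 4.94. Against these 6 markers all 6 of these genes lay higher after MI in Cre-negative hearts, and 5 of them did in Cre-positive hearts, where Dkk3 overlapped. Between genotypes after MI the choice of markers mattered too. Against all 10 markers Sfrp1, Sfrp2, Frzb and Fzd1 overlapped between genotypes after MI, and Dkk3 and Axin2 lay higher in all Cre-positive libraries, while against the 7, with or without Gsn, the former 4 lay lower in all Cre-positive libraries. Against the 7 they stood, for example, with Sfrp1 at 28.2 to 44.1 against 54.5 to 64.9. Under all 3 sums Sfrp2 was lower in all Cre-positive sham libraries and Tnfrsf19 higher in all Cre-positive MI libraries.

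**Figure D4:**
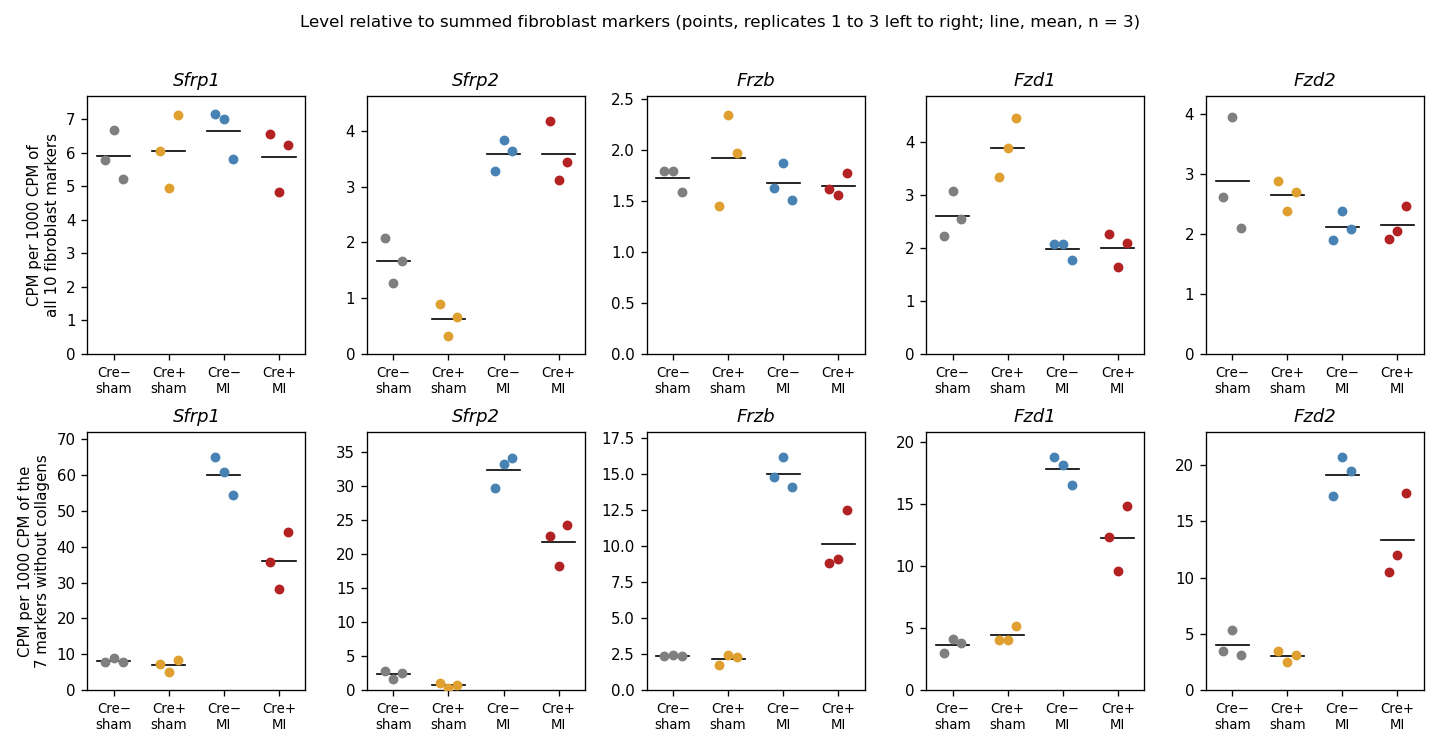
Level of 5 genes relative to summed fibroblast markers (vertical axes, linear from 0), with all 10 markers in the top row and the 7 that are not collagens in the bottom row, by group (horizontal axes); points are libraries and lines are means, n = 3. In the top row only Sfrp2 of the 5 lies higher after MI, and in the bottom row all 5 do.

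Against the cardiomyocyte markers, genes with negative estimates after MI took different directions. In Cre-negative hearts these markers summed to 128000 to 143000 CPM after sham and 51500 to 71500 after MI. A gene of unchanged CPM would therefore lie higher after MI on this measure, and no share of all genes was computed. Wif1 was at 8.27 to 12.8 CPM per 100000 CPM of these markers in Cre-negative hearts after sham and 5.04 to 12.3 after MI, so its ranges then overlapped. Tnfrsf19 remained lower after MI in Cre-negative hearts, at 2.41 to 4.99 after sham and 1.01 to 1.77 after MI, but overlapped in Cre-positive hearts. It was higher in all Cre-positive MI libraries, at 1.96 to 3.90. Wnt5a lay higher after MI on this measure in both genotypes. It was at 8.34 to 11 after sham and 15.1 to 16.3 after MI in Cre-negative hearts. In Cre-positive hearts it was at 7.59 to 9.13 and 9.96 to 14.4. Axin2 lay higher in Cre-negative hearts, at 3.94 to 5.51 after sham and 8.21 to 8.68 after MI, and overlapped in Cre-positive hearts.

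The rest of the pathway was followed in 9 lists, which also hold the members. Of 103 further Wnt pathway genes 81 were tested, of which 28 were called higher and 15 lower after MI in Cre-negative hearts and 20 and 11 in Cre-positive hearts. These are 53.1% and 38.3% of the 81, against 54.3% and 45.2% of all genes tested. None of the 81 was called between genotypes after MI or sham. In the list of secreted antagonists 6 of 9 tested were called higher in either genotype, against 29.9% and 25.7% of all genes. Wif1 was called lower in Cre-negative hearts, against 24.4% of all genes. The median log2 change was 2.07 and 2.0, where the median of all genes was 0.02. The members Sfrp1, Sfrp2, Frzb, Wif1 and Dkk3, chosen with earlier results known, are part of this list. Of the others tested, Dkk2 and Sfrp4 were called higher in both genotypes, and Sfrp5 and Sost were called in neither. Besides the members, Dkk2, a Dickkopf antagonist of the LRP co-receptors, rose 14.4-fold in Cre-negative hearts (log2 3.84 ± 0.50 SE, adjusted p = 4.49e-05) from 0.241 ± 0.133 CPM (SD, n = 3). Sfrp4, a further Frizzled-related protein, rose by 3.14 ± 0.62 (SE) on the log2 scale in Cre-negative hearts (adjusted p = 0.00101) from 0.195 ± 0.0981 CPM. In Cre-negative MI Dkk2 was at 2.58, 2.78 and 4.89 CPM and Sfrp4 at 1.33, 2.06 and 2.0 CPM.

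Of 15 Frizzled receptors and co-receptors tested, 8 rose and 2 fell in Cre-negative hearts, and 6 rose and 1 fell in Cre-positive hearts. The members Fzd1 and Fzd2 are among those that rose. For this and the lists that follow, the shares of all genes called were 29.9% higher and 24.4% lower in Cre-negative and 25.7% and 19.5% in Cre-positive hearts. Ptk7, a co-receptor used in planar polarity, rose 3.85-fold (log2 1.95 ± 0.14 SE, adjusted p = 5.86e-07), and Ror2, a receptor for Wnt5a, rose 5.72-fold (log2 2.51 ± 0.19 SE, adjusted p = 6.41e-07) in Cre-negative hearts. Both also rose in Cre-positive hearts, by 1.98 ± 0.15 and 1.96 ± 0.18 (SE) on the log2 scale. Of 8 Wnt ligands tested, Wnt4 rose (9.90-fold, log2 3.31 ± 0.37 SE, adjusted p = 1.24e-05) and Wnt2b fell in Cre-negative hearts (log2 -1.12 ± 0.28 SE, adjusted p = 0.00492), and in Cre-positive hearts Wnt4 alone of these 8 was called. Wls, which carries Wnt proteins to the cell surface, rose by 0.52 ± 0.11 (SE) on the log2 scale in Cre-negative hearts (adjusted p = 0.00191).

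Among 12 genes listed as targets or feedback regulators of beta-catenin, Axin2 was not called, while 8 rose and 2 fell in Cre-negative hearts and 6 rose and 1 fell in Cre-positive hearts, with median log2 changes of 1.13 and 1.2. Cd44, an adhesion receptor that leukocytes also carry, rose 7.66-fold in Cre-negative hearts (log2 2.94 ± 0.19 SE, adjusted p = 2.86e-07), and Nkd2, a Dishevelled-binding feedback inhibitor, rose 8.37-fold (log2 3.07 ± 0.32 SE, adjusted p = 8.79e-06). Its relative Nkd1 rose 2.45-fold (log2 1.29 ± 0.23 SE, adjusted p = 0.000573). Of 16 genes of the destruction complex and Dishevelled, 3 rose and 3 fell in Cre-negative hearts and 0 rose and 3 fell in Cre-positive hearts. Of 14 TCF/LEF factors and co-regulators 4 rose and 3 fell in Cre-negative and 3 rose and 3 fell in Cre-positive hearts, and of 14 planar polarity genes 4 rose and 4 fell, and 4 rose and 3 fell. In Cre-negative hearts the TCF/LEF and planar polarity lists were near the shares of all genes. The destruction complex list was below them in both directions, by few genes. Of 6 genes of the R-spondin axis 1 rose and 2 fell in Cre-negative hearts, and 1 fell in Cre-positive hearts. The riser, Lgr5, rests on 0 to 22 reads per library and lost its call with the Y-linked term (adjusted p = 0.0502) and without Cre-negative sham replicate 1 or 3 or Cre-negative MI replicate 3 (adjusted p = 0.0873, 0.085 and 0.086). Znrf3, a ubiquitin ligase that removes Frizzled receptors and 1 of the 2 that fell, lost its call with the Y-linked term (adjusted p = 0.0588), on log2(FPKM + 1) values (adjusted p = 0.244) and without Cre-negative sham replicate 2 or Cre-negative MI replicate 2 or 3 (adjusted p = 0.0718, 0.0819 and 0.11). The gene that fell in both genotypes was Lgr6, an R-spondin receptor, which fell by 1.30 ± 0.16 (SE) on the log2 scale in Cre-negative hearts (adjusted p = 2.53e-05).

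**Figure D5:**
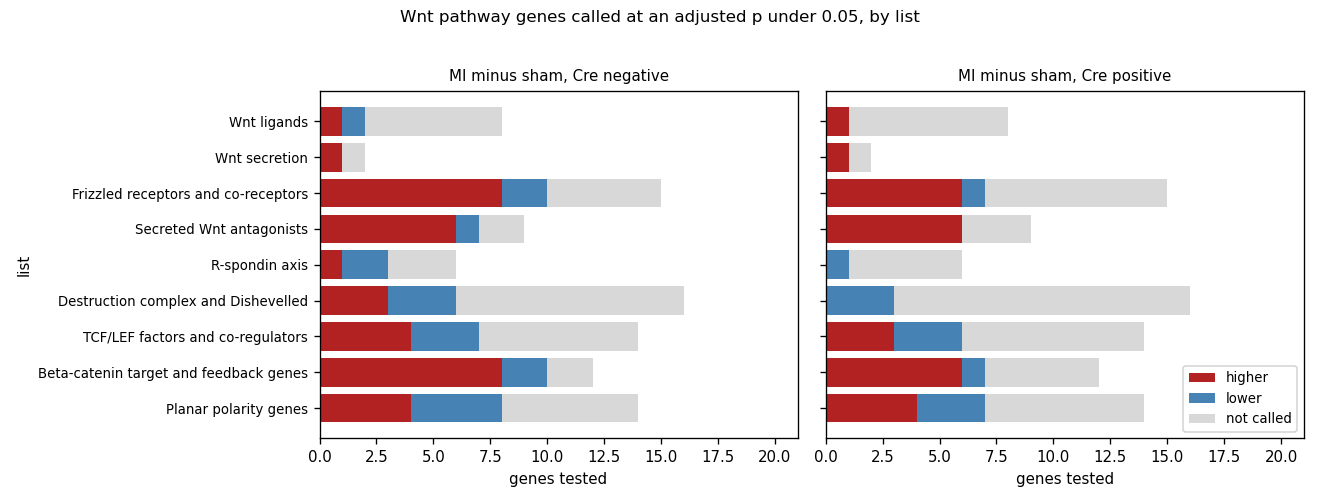
Number of tested genes (horizontal axes) called higher, called lower or not called after MI in each Wnt pathway list (vertical axis), for Cre-negative and Cre-positive hearts. In the list of secreted antagonists, which includes the members Sfrp1, Sfrp2, Frzb, Wif1 and Dkk3, 6 of 9 were called higher in both genotypes. Lists such as planar polarity were split, with 4 higher and 4 lower of 14 in Cre-negative hearts.

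Genes whose log2 CPM followed each member most closely over the 12 libraries are given as a description, since all share the libraries and most share the difference between sham and MI. Sfrp1 went with Ctsb, a lysosomal protease (Pearson r = 0.998 over 12 libraries), and Sfrp2 with the type I collagen genes Col1a1 (r = 0.994) and Col1a2 (r = 0.992). Frzb went with Ckap2 (r = 0.997) and Wisp1, a matricellular gene (r = 0.995). Fzd2 was closest to Tsku (r = 0.997) and Fzd1 to Pgd (r = 0.994). Wnt5a was closest to Htra1, a secreted protease (r = 0.972), Tnfrsf19 to the transcription factor gene Sox6 (r = 0.96), Dkk3 to Wdr92 (r = 0.97) and Wif1 to Ubox5 (r = 0.939). Axin2 had the loosest match, Cacna1g, a calcium channel gene (r = 0.871). After subtraction of group means, Sfrp1 and Fzd1 still varied together (r = 0.83 over 12 libraries, and 0.72 over the 11 without Cre-positive sham replicate 2). Dkk3 and Fzd2 varied in opposite directions, at r = -0.86 both with and without that library. So did Frzb and Tnfrsf19, at -0.66 both times. Wnt5a varied with Axin2 (0.76 with that library and 0.67 without) and with Tnfrsf19 (0.40 and 0.73). By contrast the relation of Sfrp1 with Sfrp2 went from 0.76 to 0.02 and that with Dkk3 from -0.89 to -0.42 when that library was left out, so these rest on it in large part.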

How the data were processed

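The data are RNA of mouse left ventricle in 12 libraries, with 3 in each of the 4 groups. The submitters' processing notes name the build mm10 and the tools Bowtie2 2.2.5 and RSEM 1.2.12. Per the file headers, each deposited library file gives RSEM expected counts and FPKM values per gene, made by the authors, and 4 deposited comparison tables give the authors' log2 fold changes and adjusted p-values from DESeq2. Whether counting used strand is not given in the sources used here.

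Expected counts were rounded (82.5% of the values of the 10 genes were whole already). In R 4.3.3 with edgeR 4.0.16, filterByExpr (minimum count 10) kept 13678 of 17471 genes (3793 left out), TMM factors were 0.89 to 1.14, and the quasi-likelihood fit took the 12 libraries together with a mean for each of the 4 groups, leaving 8 residual degrees of freedom. P-values are two-sided and adjusted by Benjamini and Hochberg's method over all genes tested in each contrast, with calls under 0.05. The script was tested on simulated data. CPM are expected counts per 1e6 of the scaled library size, apart from the floor of 3 reads and the Y-linked sum, which use the unscaled size. FPKM were used to compare levels between genes, for ranks, sums and shares in each group, and in limma. TMM factors were not applied to them. For 3 libraries against 3 an exact permutation test cannot give a p below 0.1, so none is reported. The floor of 3 reads covers counting error alone, as reads are not unique molecules. The members, the gene lists and the tests were chosen with earlier results of these data known. Named genes are the 10 members, up to 4 called genes with the smallest p from each pathway list, described in part, and the genes of highest correlation with each member. Genes given by rank of FPKM, by Myh7 or by marker sums were named after their values were seen. Alternatives were DESeq2 1.42.0, limma 3.58.1 on log2(FPKM + 1), RLE size factors, no filter on low counts, a replicate block, a term for libraries with 4 Y-linked genes summing to at least 10 CPM, fits of 2 groups and leaving out each library. Promoters came from RefSeq (GRCm38.p6).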

Additional observations from a re-analysis of the deposited data

How the results depend on the processing

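The number of the 10 genes called was 8 after MI in Cre-negative and 7 in Cre-positive hearts and 0 between genotypes after MI, and these kept within 1.5 times of their value under RLE size factors, no low count filter, the replicate block, the Y-linked term, fits of 2 groups, DESeq2, limma on log2(FPKM + 1) and leaving out each library. After sham the count between genotypes was 0 but became 1, Sfrp2, with DESeq2, and ranged from 0 to 1 when each library was left out; the cause was not tested. With the replicate number as a block the counts were 8, 7, 0, 0 and 0, and the block changed no call of a member. Deviations from group means correlated at -0.15 to 0.29 between same-numbered libraries of different groups, with 4 of 18 above 0.1. Between other numbers they correlated at -0.31 to 0.22, with 8 of 36 above 0.1. The highest values, 0.29 and 0.25, were both of same-numbered MI libraries (numbers 1 and 3). Of 12 libraries 5 were closest to their own number. These values cannot tell whether the number pairs samples. Over 940 refits of single members, 924 kept their side of the threshold, 11 lost a call and 5 gained one. The 924 include refits that turned sign with no call in either fit, such as Dkk3 between genotypes after sham. Among the other named genes 20 refits lost a call and 1, Dvl3 in Cre-negative hearts with limma on log2(FPKM + 1), turned sign at a value of 0 (log2) from -0.27. Over all genes, calls between genotypes after MI were 0 in edgeR, 177 with DESeq2, 42 with limma and 1 in the fit of 2 groups; after sham they were 7, 36, 6 and 0. Depth limits Tnfrsf19 after MI and Sfrp2 after Cre-positive sham, with as few as 9 and 8 reads.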
